A study of Mus musculus with 3 samples.

Results

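Retinoic acid, the active form of vitamin A, is made and destroyed inside embryonic tissues, and 10 genes that make it, destroy it, bind it or receive it were followed here across the esophagus, stomach and intestine primordia of the mouse embryo. The genes were chosen by name: the retinal dehydrogenases Aldh1a1, Aldh1a2 and Aldh1a3, the retinol dehydrogenase Rdh10 and the retinal reductase Dhrs3, the degrading enzymes Cyp26a1 and Cyp26b1, the binding proteins Crabp1 and Crabp2, and the receptor gene Rarb. The array carried 12 features for them, with 1 for each gene except Rdh10 and Dhrs3, which had 2 each. They are 10 of the 16998 genes that could be named on the array, and all 10 gave a signal well above background on every array, so no member was lost to a filter on dim features.

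The esophagus, stomach and intestine primordia were taken from ICR mouse embryos at embryonic day 11.5, for which the labels give no genetic change and no treatment, and total RNA of each organ was labelled with Cy3 for 1 single-colour Agilent expression array. Each organ is thus represented by 1 array, no spread between samples can be measured, and every difference below is a description of these 3 RNA samples without a test. The labels do not say how many embryos were pooled, and the extraction protocol names the stomach alone in every sample, so the organ was taken from the title and tissue label. The design sets the 3 primordia side by side at the age when the gut organs take shape.

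Retinol enters cells from the blood, is oxidised to retinal by Rdh10, and is then oxidised irreversibly to retinoic acid by the Aldh1a enzymes, while Dhrs3 turns retinal back into retinol and the Cyp26 enzymes turn retinoic acid into inactive products. Crabp1 and Crabp2 carry retinoic acid within the cell, and the retinoic acid receptors, of which Rarb encodes one, switch genes on when it binds. Rarb, Cyp26a1 and Dhrs3 are themselves well known as genes that retinoic acid induces. In the mouse, Aldh1a2 in the mesoderm is the main source of retinoic acid in the early embryo, and its loss disturbs the formation of the stomach, lung and other foregut organs.

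The promoters of Rarb and Cyp26a1 are shown because each holds the letters of the classical retinoic acid response element, a direct repeat 5, in which a pair of 6-base motifs (AGGTCA, in some genes GGGTCA, elsewhere AGTTCA and also GGTTCA, searched on both strands) stand in 1 direction with 5 bases between them. The 250 bases before the start of 1 RefSeq transcript of each gene are printed 5′ to 3′ in the direction of the gene (build GRCm38.p6, RefSeq), with the motifs of the repeat in capitals.
Rarb (chr14:16575477-16575726, minus strand): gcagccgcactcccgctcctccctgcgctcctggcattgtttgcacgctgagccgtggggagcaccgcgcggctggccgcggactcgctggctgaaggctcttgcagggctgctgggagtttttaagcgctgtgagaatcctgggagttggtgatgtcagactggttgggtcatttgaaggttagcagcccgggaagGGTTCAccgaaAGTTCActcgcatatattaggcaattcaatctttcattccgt
Cyp26a1 (chr19:37697558-37697807, plus strand): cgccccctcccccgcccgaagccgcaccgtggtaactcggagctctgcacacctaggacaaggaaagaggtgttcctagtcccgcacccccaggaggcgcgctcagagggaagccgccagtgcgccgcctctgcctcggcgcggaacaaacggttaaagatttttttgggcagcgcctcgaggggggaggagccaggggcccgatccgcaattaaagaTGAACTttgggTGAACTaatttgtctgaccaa
In Rarb the repeat lies 53 to 37 bases before the start and reads in the direction of the gene, and in Cyp26a1 it lies 32 to 16 bases before the start and reads on the opposite strand. Of 32851 RefSeq promoters of 300 bases, 32 (0.0974%) held such a repeat, and they belong to 31 genes. A promoter was in the table for 7 of the 10 genes, Rdh10, Crabp2 and Aldh1a3 having no entry, and Rarb and Cyp26a1 were those of the 7 with a direct repeat 5. A single motif was found in 43.7% of all promoters, and among these genes in those of Aldh1a1, Cyp26a1 and Rarb. The repeat with 2 bases between the motifs was found in 0.268% of promoters and in 0 of these genes. A match of letters is a description and does not show that a receptor binds there.

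Levels are given as log2 of the background-subtracted spot intensity minus the 75th percentile of the same array, so that 0 marks the brightness that 3 in 4 spots do not exceed. The array's features bind their targets with different strength, so levels are set side by side between organs and not between genes. Between 67.9% and 74.0% of spots were well above background on each array and 0 spots were saturated. The 75th percentile itself was 393, 334 and 1023 on the esophagus, stomach and intestine arrays, and the median E1A spike-in control, RNA added in a known amount at labelling, stood 1.80, 1.98 and 1.08 log2 units above it. Scaling on the spike-in controls in place of the percentile therefore adds 0.72 log2 units to every difference of intestine from esophagus and 0.90 to every difference from stomach, and both scalings are given for the 10 genes. Markers of the organs followed the labels for stomach and intestine and in part for esophagus: 6 of 6 stomach markers, among them Barx1 (a log2 difference of 3.57), exceeded their esophagus level by 2-fold or more in stomach, and 6 of 6 intestine markers, among them Vil1 (6.21), did so in intestine. Of the 6 intestine markers 5 also exceeded their esophagus level by 2-fold or more in stomach. Of 6 esophagus markers, 4 were 2-fold or more lower in stomach and 5 in intestine, the exceptions being Sox2 (−0.47) and Krt14 (0.08) in stomach and Krt14 (0.19) in intestine. The esophagus sample also held 10 of 10 heart and 6 of 6 pharynx markers at more than 4 times their level in stomach, and the intestine sample held 8 of 10 liver markers at more than 4 times their level in esophagus.

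The synthesis genes ranked the organs differently. Aldh1a2 was highest in intestine, Aldh1a1 was lowest in stomach, and Aldh1a3 was highest in esophagus. The intensity of Aldh1a2 was 4659 for esophagus, 5709 for stomach and 44234 for intestine, or 3.57, 4.09 and 5.43 log2 units over the 75th percentile. The intestine value was thus 3.65 times that of esophagus and 2.53 times that of stomach, and the stomach value 1.44 times that of esophagus. Of the 13100 genes measured in both esophagus and intestine, 197 had a larger difference in favour of intestine. On the spike-in scale the intestine differences were 2.58 and 2.24 log2 units, so intestine was highest on both scales.

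Aldh1a1, a retinal dehydrogenase known from the dorsal part of the embryonic retina, read 967 for esophagus, 287 for stomach and 4279 for intestine. Its levels were 1.30, −0.22 and 2.06 log2 units, so that stomach was lowest and intestine highest. Stomach lay 2.86-fold below esophagus and 4.87-fold below intestine, and 93 of 13273 genes had a larger difference in favour of intestine over stomach. Intestine exceeded esophagus by 0.77 log2 units after percentile scaling and by 1.48 after spike-in scaling, and stomach by 3.18 on the latter.

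Aldh1a3, the third enzyme of the group, known in the embryo for its part in the nose and eye, was dim, with intensities of 69.7, 23.8 and 22.8 in esophagus, stomach and intestine. These were 9.91, 4.07 and 2.79 times the lowest intensity called well above background on the same array. The levels of −2.50, −3.81 and −5.49 log2 units put it highest in esophagus, 2.49-fold over stomach and 7.95-fold over intestine. Another background correction (normexp), which pulls dim spots together, brought these differences to −0.51 for stomach and −1.94 for intestine, and spike-in scaling gave −2.28 for intestine against esophagus and −0.78, in place of −1.67, against stomach.

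Rdh10, which makes retinal from retinol and is needed for retinoic acid synthesis in the mouse embryo, was highest in intestine on both of its features. The brighter feature had intensities of 123 for esophagus, 86.6 for stomach and 1117 for intestine, with levels of −1.67, −1.95 and 0.13. The dimmer one had intensities of 53.8, 52.7 and 372, with levels of −2.87, −2.67 and −1.46. Intestine exceeded esophagus by 1.80 log2 units on the brighter feature and by 1.41 on the dimmer, and exceeded stomach by 2.07 and 1.21. The brighter feature stood 2.52 above esophagus and 2.97 above stomach on the spike-in scale. Stomach and esophagus lay close, and the features put them in opposite order, at −0.27 and 0.20. For the brighter feature, 119 of 13273 genes showed a larger difference in favour of intestine over stomach.

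Dhrs3, the enzyme that runs the opposite reaction, did not share that pattern. Its brighter feature read 1982, 2048 and 2499 in the same order, and its dimmer feature read 385, 581 and 873. Scaled to the 75th percentile these were 2.33, 2.62 and 1.29 for the brighter feature and −0.03, 0.80 and −0.23 for the dimmer. Both features had stomach highest and intestine lowest, but the intestine-minus-esophagus difference was −1.05 on the one and −0.20 on the other. After spike-in scaling the brighter feature was at −0.33 against esophagus and −0.43 against stomach. Rdh10 gained on Dhrs3 by 2.85 log2 units from esophagus to intestine and by 3.40 from stomach to intestine, a contrast that no rescaling of a whole array can change, and which ran from 1.61 to 3.08 and from 2.23 to 3.40 over 6 ways of treating background, distribution and features.

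**Figure D1:**
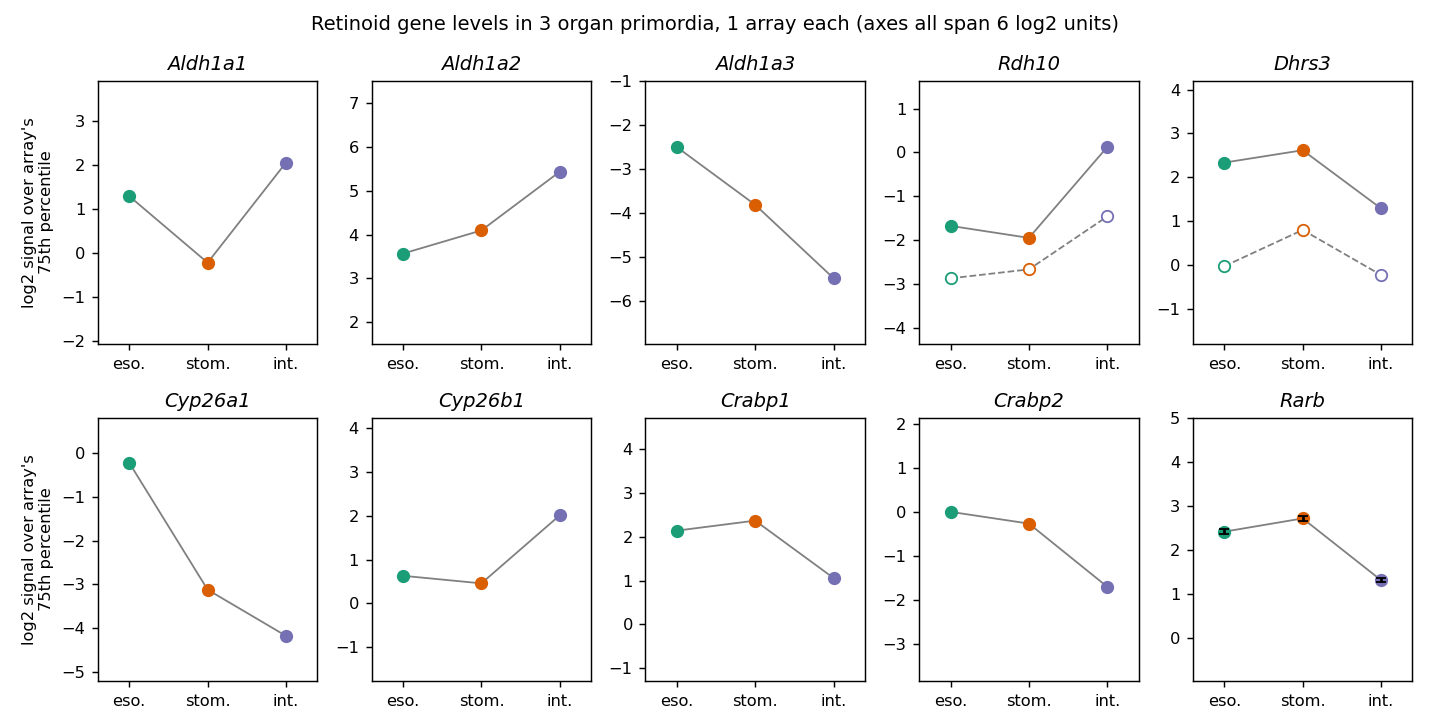
Each panel plots the level of 1 gene (log2 intensity minus the array's 75th percentile, vertical axis) in esophagus (eso.), stomach (stom.) and intestine (int.), with filled points for the feature that stands for the gene, open points for a further feature, and for Rarb bars of 1 SD over its repeated spots. Panels are centred on their own gene and all span the same number of log2 units, and Aldh1a1, Aldh1a2, Rdh10 and Cyp26b1 stand highest in intestine while Cyp26a1 stands at −0.22 in esophagus and −4.17 in intestine.

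The 2 degrading enzymes stood highest in opposite organs. Cyp26a1, which clears retinoic acid and is induced by it, gave intensities of 337 for esophagus, 38.5 for stomach and 56.8 for intestine. Its levels of −0.22, −3.12 and −4.17 log2 units put esophagus 7.44-fold above stomach and 15.4-fold above intestine. In stomach against esophagus, 66 of the 12923 genes measured on both arrays had a lower difference, and 69 of 13100 in intestine against esophagus. With normexp correction the 2 differences were −1.85 and −3.00, and with spike-in scaling −3.08 and −3.23. The gap between stomach and intestine depended on the scaling: −1.05 by the percentile and −0.15 by the spike-in controls.

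Cyp26b1, the second retinoic acid hydroxylase, read 609 on the esophagus array, 459 on the stomach array and 4123 on the intestine array. The levels were 0.63, 0.46 and 2.01, so esophagus and stomach lay within 0.17 log2 units of each other and intestine stood 2.60-fold above esophagus and 2.93-fold above stomach. Spike-in scaling widened the intestine differences to 2.09 and 2.45 log2 units. Between esophagus and intestine, Cyp26b1 gained on Cyp26a1 by 5.33 log2 units, or 40.1-fold, and this contrast ranged from 4.38 to 5.33 over the same 6 ways of processing.

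For the binding proteins and the receptor gene, how far intestine lay below the other organs depended on how its array was scaled. Crabp1, which binds retinoic acid in the cytoplasm, read 1732 for esophagus, 1724 for stomach and 2132 for intestine, with levels of 2.14, 2.37 and 1.06. Crabp2, which carries retinoic acid to its receptors, read 395, 279 and 315, with levels of 0.01, −0.26 and −1.70. By the 75th percentile both were lowest in intestine, with differences from esophagus and stomach of −1.08 and −1.31 log2 units for Crabp1 and of −1.71 and −1.44 for Crabp2. On the spike-in scale these were −0.36 and −0.41 for Crabp1 and −0.99 and −0.54 for Crabp2, in the same direction but less than 2-fold.

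Rarb was printed 10 times on each array, and among the 10 genes it alone has repeated spots from which an error within an array can be had. After outlier spots were left out, its level was 2.42 ± 0.055 (SD, n = 8 spots) in esophagus, 2.72 ± 0.052 (SD, n = 10 spots) in stomach and 1.31 ± 0.043 (SD, n = 6 spots) in intestine. The spots ran from 2.35 to 2.50 in esophagus, from 2.60 to 2.79 in stomach and from 1.24 to 1.36 in intestine. The 3 organs thus did not overlap on the percentile scale. With the 2 outlier spots of esophagus and the 4 of intestine put back, esophagus reached 2.67 and overlapped stomach. This spread covers the printing and reading of 1 RNA sample on 1 array and says nothing of how embryos differ. In unscaled intensity the 3 organs read 2105, 2206 and 2543. There the spots of esophagus (2003 to 2217) and stomach (2024 to 2308) overlapped even with outlier spots left out, so their separation depends on the scaling. The intestine differences of −1.11 against esophagus and −1.41 against stomach became −0.39 and −0.51 on the spike-in scale.

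Rarb, Crabp1 and Dhrs3 lay close to each other in every comparison on the percentile scale. Their differences were 0.30, 0.23 and 0.28 for stomach against esophagus, −1.11, −1.08 and −1.05 for intestine against esophagus, and −1.41, −1.31 and −1.33 for intestine against stomach. The dimmer Dhrs3 feature departed from the other values in the comparisons with esophagus, at 0.83 and −0.20. Rarb and Cyp26a1, the 2 genes with a direct repeat 5 in the promoters shown above, differed: for stomach against esophagus Rarb stood at 0.30 and Cyp26a1 at −2.89.

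Taken as a list, the 10 genes were set beside all genes measured on at least 1 of the 2 arrays compared. Between esophagus and stomach, 0 of the 10 reached 2-fold in favour of stomach, as 4.14% of all 13740 genes did, and 3 (Aldh1a1, Aldh1a3 and Cyp26a1) reached 2-fold in favour of esophagus, as 5.71% of all genes did. At 4-fold the counts were 0 higher (0.684% of all genes) and 1 lower, Cyp26a1 (1.58% of all genes). The median difference of the 10 was −0.22, beside 0.15 for all genes measured on both arrays.

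Between esophagus and intestine, 3 of the 10 (Aldh1a2, Rdh10 and Cyp26b1) reached 2-fold in favour of intestine, as 8.4% of all 14462 genes did, and 6 (Aldh1a3, Dhrs3, Cyp26a1, Crabp1, Crabp2 and Rarb) in favour of esophagus, as 11.5% did. Past 4-fold there were 0 higher (1.75% of all genes) and 2 lower, Cyp26a1 and Aldh1a3 (3.7% of all genes). The median of the 10 was −1.06, beside 0.12 for all genes. The 6 lower genes became 2, Aldh1a3 and Cyp26a1, on the spike-in scale, and 3, with Crabp2, after median scaling or normexp correction. The 3 higher genes stayed past 2-fold in all of these settings, joined by Aldh1a1 after spike-in or median scaling, but under those scalings 38.6% and 26.1% of all genes passed 2-fold in favour of intestine.

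Between stomach and intestine, 4 of the 10 (Aldh1a1, Aldh1a2, Rdh10 and Cyp26b1) reached 2-fold in favour of intestine, as 4.77% of all 14384 genes did, and the 6 genes just named did so in favour of stomach, as 7.18% did. At 4-fold 2 were higher, Aldh1a1 and Rdh10 (1.38% of all genes), and 0 were lower (1.24% of all genes). The median of the 10 was −1.18, beside −0.04 for all genes. On the spike-in scale the 4 higher genes remained past 2-fold, but there 37.6% of all genes passed 2-fold in favour of intestine, and 0 of the 6 lower genes remained. The 4 higher and the 6 lower genes lay 2.39 log2 units apart, from Aldh1a2 at 1.34 to Cyp26a1 at −1.05. A rescaling of the arrays leaves this gap as it is, but the 2-fold cut each way that made the groups sets most of it. The comparisons share arrays, so the 6 genes lowest in intestine against esophagus and against stomach are not independent observations.

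**Figure D2:**
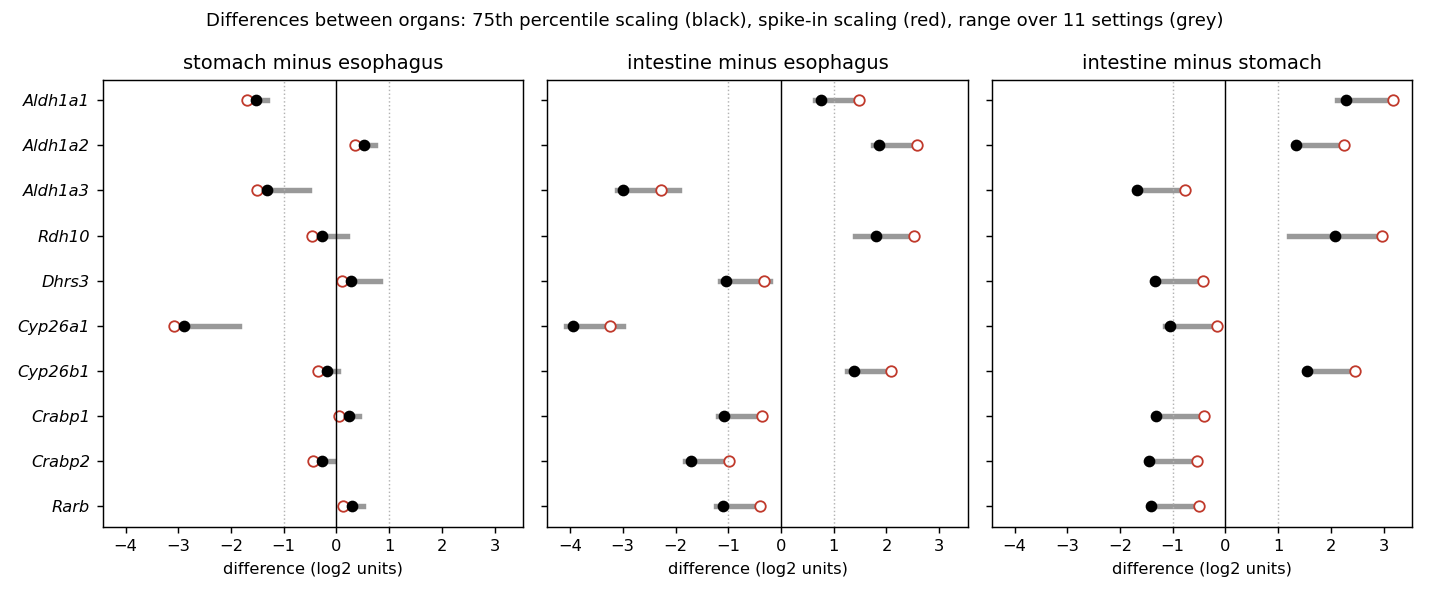
The horizontal axis is the difference between 2 organs in log2 units, with the percentile-scaled value in black, the spike-in-scaled value in red and the range over 11 settings in grey, and dotted lines at 2-fold. In the intestine comparisons Aldh1a1, Aldh1a2, Rdh10 and Cyp26b1 lie to the right of 0 and the other 6 genes to the left over the whole range, while the spike-in scale brings Cyp26a1 to −0.15 for intestine against stomach.

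**Figure D3:**
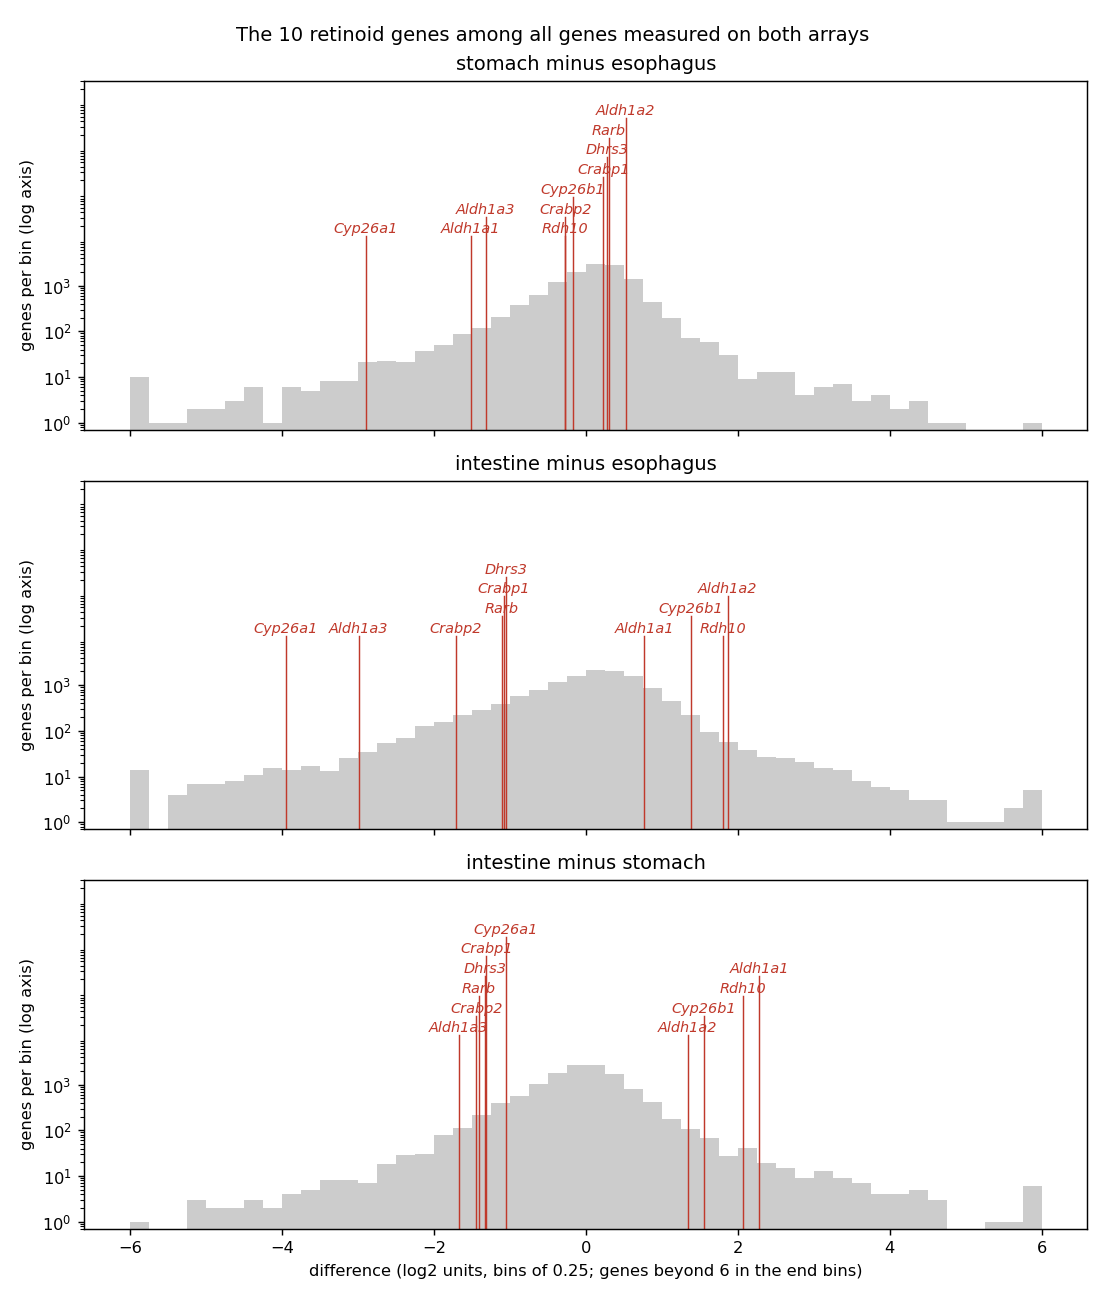
Grey bars count all genes measured on both arrays by their difference between 2 organs (horizontal axis, log2 units, log vertical axis), and red lines mark the 10 retinoid genes. Cyp26a1 lies far out on the lower side in the comparisons with esophagus, at −2.89 and −3.95, while Crabp1, Dhrs3 and Rarb stand together near −1.1 for intestine against esophagus.

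Markers of other tissues differed between the samples along with these genes. In bulk RNA, fewer cells of a type and less RNA per cell cannot be told apart. The summed level of the 10 heart markers, in multiples of the 75th percentile, was 131 for esophagus, 3.53 for stomach and 4.11 for intestine. That of the 6 pharynx markers was 26.7, 0.82 and 0.44, and both sums were highest in esophagus, as Cyp26a1 and Aldh1a3 were. The 9 gut mesenchyme markers summed to 328, 217 and 175, the order of Cyp26a1 and Aldh1a3 and the reverse of that of Aldh1a2. Against esophagus, 2 of these 9 were lower by 2-fold or more in stomach and 3 in intestine, with 0 higher. The 5 measured urogenital ridge markers summed to 19.3, 9.48 and 1.04, mostly from Osr1 (levels of 4.25, 3.19 and −0.25). Of 7 trachea and lung markers, 5 (Nkx2-1, Wnt2, Sftpc, Tbx4 and Tbx5) were 4-fold or more lower in both stomach and intestine than in esophagus. The sums of all 7, at 24.0, 18.0 and 21.1, were made up mostly by Id2, which had levels of 3.85, 4.11 and 4.39 log2 units. Of the 7 markers 3 were not above background in stomach and 4 in intestine. All 10 heart markers were above background on every array, while 1 of the 6 pharynx markers was not in stomach and 3 were not in intestine. The summed level of the 10 liver markers with a feature was 12.1 for esophagus, 10.4 for stomach and 93.2 for intestine, with all 10 above background throughout. Between esophagus and stomach the sum hides opposite moves: 7 of 10 liver markers were 2-fold or more lower in stomach, with a median of −1.53, while Ambp was higher by 2.20 log2 units. In all, 7 of the 10 had the order of intestine, esophagus and stomach from high to low that Aldh1a1 also had. Against stomach 9 of the 10 liver markers were up by 2-fold or more in intestine, as Aldh1a1, Aldh1a2, Rdh10 and Cyp26b1 were. Hhex entered both of these liver counts on its brighter feature only. Its other feature stood in intestine at −0.17 against esophagus and 0.75 against stomach. The order of Aldh1a1 was also that of all 6 endothelium markers. Against esophagus these ran from −1.60 to −0.15 log2 units in stomach and from 0.09 to 0.40 in intestine. The 8 mesothelium markers summed to 4.98, 9.06 and 13.2, the order of Aldh1a2, with Tcf21 (levels of 1.06, 2.22 and 3.01) the largest part in intestine. Singly, Podxl, Tcf21 and Bnc1 took that order and the other markers of the list did not. The features of Podxl disagreed: intestine stood at 1.19 against esophagus and 0.79 against stomach on the brighter one, and at −0.89 and −1.26 on the other. In intestine 5 of 8, Podxl on its brighter feature among them, exceeded their esophagus level by 2-fold or more with 0 lower. Against stomach 2 were higher and 1, Msln (−2.87), was lower. The part of these tissues in the levels of the 10 genes was not tested.

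The wider pathway was followed through 66 further genes, of which 62 had a named feature and Rbpr2, Cyp26c1, Fabp5 and Zfp703 are not analysed here. At 2-fold, 9 of 52 measured genes were higher and 4 lower in stomach against esophagus, 8 and 9 of 56 in intestine against esophagus, and 7 and 12 of 56 in intestine against stomach. Over all genes the shares higher and lower were 4.14% and 5.71%, 8.4% and 11.5%, and 4.77% and 7.18% in the same order. The pathway medians of 0.07, −0.12 and −0.31 lay nearer 0 than those of the 10 genes, −0.22, −1.06 and −1.18, and those of all genes were 0.15, 0.12 and −0.04. The intestine medians of the wider pathway turned positive on the spike-in scale, at 0.59 and 0.59, and the values of these genes below are on the percentile scale.

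Upstream of the 10 genes stand the proteins that bring and store retinol. Rbp4, the retinol carrier of blood plasma, made mainly by liver and visceral endoderm, stood at 1.28 in esophagus, 1.35 in stomach and 4.68 in intestine, or 3.40 log2 units above esophagus and 3.33 above stomach. Ttr, its plasma partner, was not well above background in esophagus and stomach and was at least 7.12-fold and 6.95-fold higher in intestine. Both are made by liver, whose markers were high in the same sample as given above, and the part of liver cells in their levels was not tested. Stra6, the receptor that takes retinol into cells, went the other way, with differences of −0.55 for stomach and −1.14 for intestine against esophagus.

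Among 17 other retinol and retinal oxidoreductases, 12 were measured in the intestine comparisons, with 3 higher and 1 lower at 2-fold against esophagus and 2 and 1 against stomach. All genes had 8.4% higher and 11.5% lower against esophagus and 4.77% and 7.18% against stomach. The 1 lower gene of 12 is near those shares, and the higher counts lay above them. The 3 higher against esophagus were Bco1 and Akr1b7, both bounds, and Rdh11, at 1.04 on its brighter feature and 0.54 on the other. Adh1, an alcohol dehydrogenase that oxidises retinol when it is plentiful, had levels of 0.68, −0.49 and −2.53 in esophagus, stomach and intestine. For intestine against esophagus its features gave −3.22 and −2.39, opposite in sign to Rdh10. Bco1, which cleaves beta-carotene to retinal, was not above background in esophagus and was 2.46 log2 units higher in intestine than in stomach. Cyp1b1, a cytochrome reported to make retinoic acid independently of Aldh1a enzymes in chick embryos, had levels of −0.35, −2.85 and −0.51, lowest in stomach like Aldh1a1.

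Receptors and cofactors were counted on the percentile scale. Of 12 genes, 0 reached 2-fold upward in any of the 3 comparisons, and 1 of 11, 3 of 12 and 1 of 12 reached it downward in stomach against esophagus, intestine against esophagus and intestine against stomach. Among all genes 4.14%, 8.4% and 4.77% went upward and 5.71%, 11.5% and 7.18% downward, so counts this small in 12 genes are near the background. Rara and Rarg, which encode the other retinoic acid receptors, had intestine-minus-esophagus differences of −1.18 and −1.53, beside −1.11 for Rarb. For stomach against esophagus Rarg was at −0.84 and Rarb at 0.30. The retinoid X receptor Rxrg had differences of −1.16 in stomach and −1.94 in intestine against esophagus.

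Of the genes known to respond to retinoic acid, 8 of 24 measured were higher and 1 lower at 2-fold in stomach against esophagus, 3 and 4 of 23 in intestine against esophagus, and 1 and 9 of 23 in intestine against stomach. The shares over all genes, higher and lower, were 4.14% and 5.71%, 8.4% and 11.5%, and 4.77% and 7.18%, so the counts for intestine against esophagus lay nearest to them. Hoxb1, a direct target of retinoic acid receptors in the mouse hindbrain, had levels of −5.28, −1.63 and −4.88, dim in esophagus and intestine and highest in stomach. Isl1, Nr2f1 and Ret, whose links to retinoic acid come from heart, neural and kidney work, were also highest in stomach, with stomach-minus-esophagus differences of 1.77, 1.33 and 1.94. Their intestine-minus-stomach differences were −2.77, −1.94 and −1.26. Pdx1, a regulator of pancreas and duodenum, was not above background in esophagus and was higher by at least 2.09 log2 units in stomach and at least 1.68 in intestine. Rarb, the member of the 10 most used as a readout of retinoic acid, was highest in stomach by only 0.30 log2 units over esophagus. Of the 12923 genes measured on both arrays, 4447 had a larger difference, and the spike-in scale gave 0.12 for Rarb. Dhrs3, also induced by retinoic acid, was highest in stomach on both features, by 0.28 and 0.83 log2 units over esophagus. On the spike-in scale its brighter feature gave 0.10. Cyp26a1, another such readout, was not highest in stomach.

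Tbx5, a heart and forelimb regulator that is also a marker of the lung field, had the largest differences of that list. It stood at 2.40 in esophagus and −1.56 in stomach and was not above background in intestine, at least 663-fold below esophagus on the brighter feature. Its other feature was above background in neither stomach nor intestine, so its values against esophagus, −2.40 for stomach and −3.31 for intestine, are bounds. Meis1, a homeobox gene induced by retinoids, was not settled, since its features gave −1.15 and 0.63 for intestine against stomach.

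**Figure D4:**
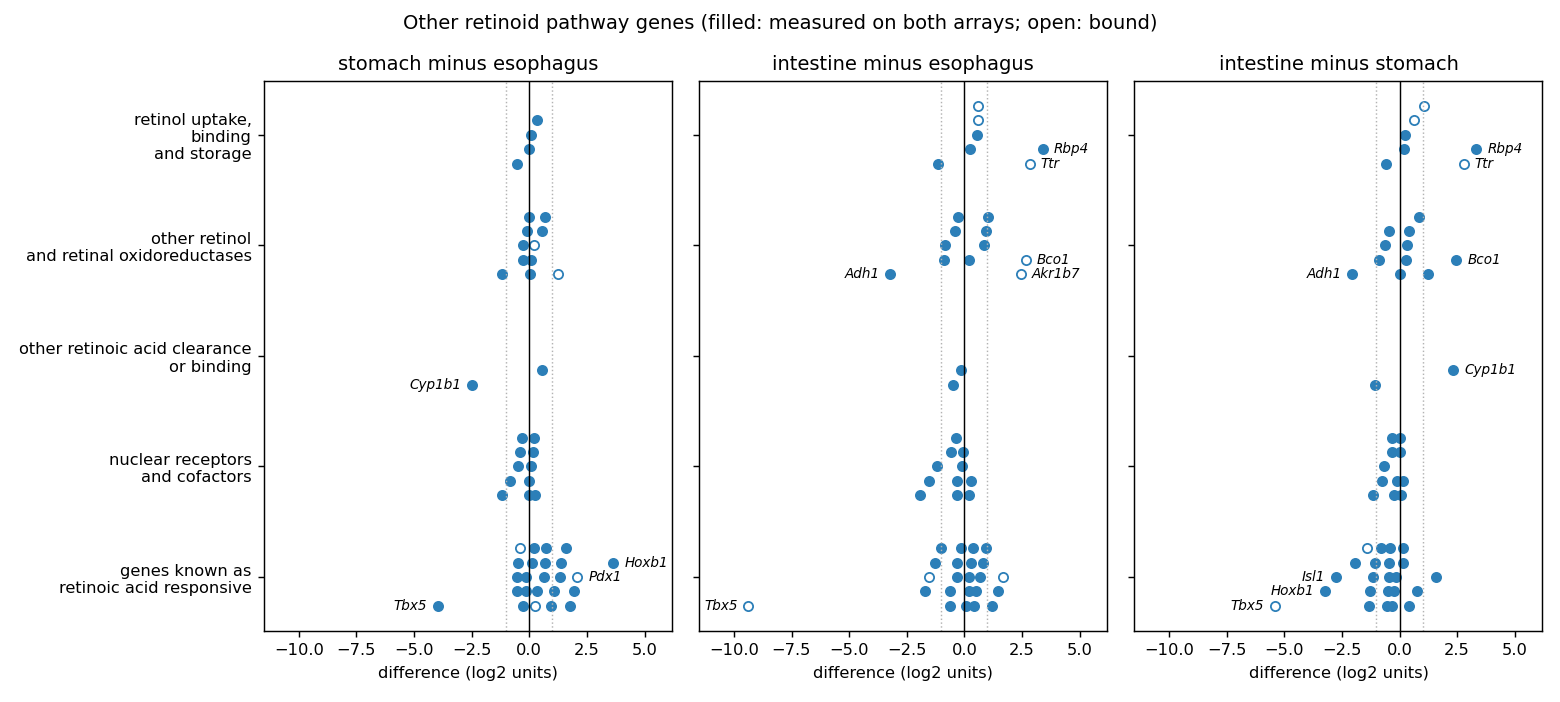
Each point is 1 further gene of the retinoid pathway, placed by its difference between 2 organs (horizontal axis, log2 units) and grouped by role (vertical axis), with open points where 1 of the 2 arrays gave a bound, dotted lines at 2-fold and names at 4-fold and beyond. Rbp4 and Ttr stand far to the right in both intestine comparisons, Adh1 to the left, and the receptors and cofactors stay between −1.94 and 0.27.

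For the 4 genes whose levels spanned at least 2 log2 units, the genes with the most similar pattern over the 3 arrays were looked up among 12854 genes measured on all of them. Likeness was the Euclidean distance between the 3 levels after each gene was centred on its own mean, and 3 values per gene leave room for many close matches. Nearest to Cyp26a1 were Tbx20, a cardiac transcription factor, at a distance of 0.14 log2 units and Tmem163, a zinc transporter, at 0.17, with 15 genes within 0.5. Tbx20 had levels of −0.32, −3.23 and −4.45, beside −0.22, −3.12 and −4.17 for Cyp26a1, and the heart markers were high in the same sample.

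Aldh1a3 lay nearest to Plxdc1, a plexin domain protein, at 0.015 and Msc, which encodes the repressor musculin, at 0.054, with 76 genes within 0.5. Rdh10 was closest to Cst13, a cystatin, at 0.021 and Nr5a2, a nuclear receptor of liver, pancreas and gut epithelium, at 0.024, with 67 within 0.5. Nr5a2 had differences of −0.31, 1.80 and 2.10 between the organs, beside −0.27, 1.80 and 2.07 for Rdh10. Aldh1a1 had Tmem100, a membrane protein of endothelium, at 0.054 and Mrap, an accessory protein of a melanocortin receptor, at 0.097, with 29 within 0.5.

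The other genes with a direct repeat 5 in the same promoter window were looked at beside Rarb and Cyp26a1. Of the 31 genes, 8 were on the array and 7 were measured, including these 2. Among the 5 others (Blvrb, Hbb-y, Ppbp, Prokr2 and Tnfsf13b), 0 reached 2-fold upward in any comparison, and 2, 2 and 1 reached it downward in stomach against esophagus, intestine against esophagus and intestine against stomach. With 4.14% to 8.4% of all genes higher and 5.71% to 11.5% lower, 0 of 5 higher is no departure from the background, and 5 genes are too few to read a pattern from. Their stomach-minus-esophagus differences ran from −3.11 to 0.75, a span that holds both Rarb at 0.30 and Cyp26a1 at −2.89.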

How the data were processed

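Total RNA of the esophagus, stomach and intestine primordia was measured on 1 single-colour Agilent array each. Per the file headers, the deposited intensity values were read with Agilent Feature Extraction 10.5.1.1, and the processed signal is an intensity after local background subtraction and removal of spatial trends, with no scaling between arrays. The deposited table of log2 values has column medians of −2.97, −3.17 and −3.47 and equals log2 signals relative to the upper quartile of each array, features not being centred: within 0.01 log2 units for 99.8%, 99.9% and 99.9% of features after 1 constant. It served as an alternative.

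Here the processed signal was taken to log2, less the 75th percentile of the same array (control spots left out, 43379 of 45018 remaining), with no pseudocount. Outlier spots (111, 70 and 77) were left out and spots of 1 feature averaged. A feature counted as measured when most of its spots were well above background. Features were named by matching accessions to a RefSeq gene table (GRCm38.p6): 24342 of 41112 features took 1 symbol, covering 16998 genes, and 16770 stayed unnamed. Of several features of a gene, the one with the highest mean stands for it. Where only 1 of 2 arrays measured a gene, its difference is a bound against the lowest measured signal. Promoters came from a RefSeq table of the same assembly. Scripts used Python 3.11.15, R 4.3.3 and limma 3.58.1 (normexp, offset 50) and recovered known differences in simulated data.

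The 10 genes, the gene lists and the markers were chosen with earlier results of these data known. Further genes are named where they are at least 2-fold apart in some comparison, at most 4 per list and comparison, or for their role as pathway input or receptor; some that met this rule are not reported here. The contrasts between pairs of the 10 genes were added after seeing the data. The 3 arrays share 1 slide and 1 scan. The number of arrays limits precision: with 1 per organ, no test was run.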

Additional observations from a re-analysis of the deposited data

How the results depend on the processing

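No paired analysis was possible because each organ has 1 array, and leaving out an array leaves no comparison. Of the 10 genes, all 20 intestine differences kept their sign under the 10 other settings tried, and only Rdh10 (−0.46 to 0.20) and Cyp26b1 (−0.36 to 0.03) changed sign between stomach and esophagus. The 6 genes lower by 2-fold or more in intestine against esophagus became 3 under normexp, 3 under median scaling and 2 under spike-in scaling, and the 6 lower than in stomach became 0 under spike-in scaling. With 4-fold in place of 2-fold, chosen after seeing the data, 1 was lower in stomach than in esophagus, 0 higher and 2 lower in intestine than in esophagus, and 2 higher and 0 lower in intestine than in stomach. Of the 30 differences, spike-in scaling moved 20, median scaling 10, normexp 5, the lowest feature of a gene 4, the mean over features 2 and quantile normalization 1 by more than the spread between features. Scaling also set the balance of all genes: in the order stomach against esophagus, intestine against esophagus and intestine against stomach, calls at 2-fold that were higher made up 42.1%, 42.2% and 39.9% by the 75th percentile, 25.7%, 88.2% and 96.2% by spike-in controls, 62.5%, 79.7% and 68.7% by median scaling, 54.2%, 57.2% and 54.5% by quantile normalization, and 37.2%, 27.3% and 13.3% after normexp. Median scaling shifted the median of all genes by 0.20, 0.50 and 0.30. Why the scalings differ was not tested. Naming features by a gene name column was not run, because the files used here have none. Dim signal limits Aldh1a3 most.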
